A study of Mus musculus with 2 samples.

Results

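Open chromatin was found at 1347 sites over the starts of long noncoding RNA (lncRNA) genes in gastrocnemius, the large calf muscle, of young mice. A site was taken when a peak of replicate 1 on chromosomes 1 to 19 overlapped a replicate 2 peak by at least 1 bp. Its midpoint also had to lie within 500 bp of the annotated start of a lincRNA or antisense transcript in GENCODE M21, and over 2 kb from every transcript start of a protein-coding gene. No peak value entered that choice. The sites were 1.44% of the 93861 peaks found in both libraries and belonged to 1138 lncRNA genes, with 1031 at lincRNA starts and 316 at antisense starts. Before the overlap was required, 1585 replicate 1 peaks met the distances, and 84.98% of them had a replicate 2 partner, against 78.5% of all replicate 1 peaks on these chromosomes.

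DNase-seq, which sequences the ends of fragments cut loose by DNase I and so maps open chromatin, was run on calf muscle from B6CASTF1/J hybrids, males at an age of 10 days. The series has 1 group of untreated tissue with 2 libraries, biological replicates 1 and 2. The labels give both the same donor record and 3 males for each sample, and do not say whether the animals were pooled, so the difference between the libraries is the spread between these samples and may be technical. No conditions could be compared and no test over samples was possible. The strain is a cross of a B6 with a CAST parent, and the files give 1 value per peak for both alleles together.

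Peak values are the deposited signal scaled to library depth, and are given for replicate 1 and then replicate 2. They behaved as whole tag counts times a constant, which put 176 and 209 tags behind the median lncRNA site, a counting error of 7.54% and 6.92%. The weakest rested on 29 and 24 tags, with counting errors of 18.6% and 20.4%. Of 50 skeletal muscle genes checked for the tissue's identity, 47 had an open promoter in both libraries, with Myh2, Mstn and Myom2 the exceptions. Markers of fibroblasts (5 of 5), endothelium (4 of 4), pericytes and smooth muscle (4 of 4) and satellite cells (3 of 4) were open too, as were 3 of 3 neuronal markers and some of tendon (2 of 3), Schwann cells (2 of 4), hepatocytes (1 of 3) and macrophages (1 of 4), while 0 of 3 erythroid and 0 of 2 keratinocyte markers were. For comparison, 67.7% of all 20807 coding genes had an open start in both libraries. That share needed the midpoint of a shared peak within 500 bp of a start. A marker needed only a peak in each library overlapping that stretch, a looser rule. The marker counts alone therefore do not settle which cells were present. In bulk tissue, fewer cells with an open site and less opening per cell cannot be told apart.

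LncRNAs are transcripts made mostly by RNA polymerase II, often capped and spliced, without a long coding frame. Some act in the nucleus as scaffolds or as agents of silencing in cis, some serve as precursors from whose introns or exons small nucleolar RNAs (snoRNAs) or microRNAs are cut, and for many no function is known. Their promoters come in the same kinds as those of coding genes. One kind lies in CpG islands and is open in most cell types, and the other is poor in CpG and more often tied to a tissue.

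Sequences of 10 sites are shown because they span these roles. Each is the whole replicate 1 peak in GRCm38 (mm10), from the B6 reference, not from the hybrid animals. It is read 5′ to 3′ along the strand of the lncRNA with the nearest start. Capitals mark matches on either strand. The E-box bound by the MyoD family was searched as CAGCTG and the SP/KLF site as GGGCGG. The box bound by NFY was searched as CCAAT, the TATA box as TATAAA and the CRE, bound by CREB factors, as TGACGTCA. The AP-1 site was searched as TGANTCA and the TEAD site as GGAATG. A match is a match of letters and not a bound site.

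The first 3 come from CpG-rich starts of a snoRNA host, of the precursor of several let-7 microRNAs and of a nuclear RNA.
Snhg5, chr9:88523061-88523280, minus strand: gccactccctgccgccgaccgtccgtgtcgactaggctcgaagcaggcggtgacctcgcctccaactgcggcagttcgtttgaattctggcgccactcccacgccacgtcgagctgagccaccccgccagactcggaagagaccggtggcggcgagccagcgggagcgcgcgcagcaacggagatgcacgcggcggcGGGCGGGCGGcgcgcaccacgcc
6720427I07Rik, chr13:48546441-48546700, minus strand: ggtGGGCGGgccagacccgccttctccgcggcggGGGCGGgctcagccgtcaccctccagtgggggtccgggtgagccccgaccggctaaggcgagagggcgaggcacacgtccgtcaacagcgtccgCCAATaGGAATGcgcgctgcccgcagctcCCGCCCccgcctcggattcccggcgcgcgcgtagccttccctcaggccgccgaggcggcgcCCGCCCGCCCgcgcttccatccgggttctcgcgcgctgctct
Malat1, chr19:5802601-5802740, minus strand: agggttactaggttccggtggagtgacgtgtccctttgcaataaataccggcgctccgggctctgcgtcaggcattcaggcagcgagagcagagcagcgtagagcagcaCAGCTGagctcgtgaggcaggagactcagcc
The Snhg5 peak held 33 CpG in 220 bp and the 6720427I07Rik peak 39 in 260 bp, the latter with 5 GGGCGG matches. Malat1 had 9 CpG in 140 bp and its single match was an E-box.

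The next pair belongs to imprinted genes, H19, which is expressed from the maternal allele, and Meg3, likewise maternal.
H19, chr7:142578141-142578360, minus strand: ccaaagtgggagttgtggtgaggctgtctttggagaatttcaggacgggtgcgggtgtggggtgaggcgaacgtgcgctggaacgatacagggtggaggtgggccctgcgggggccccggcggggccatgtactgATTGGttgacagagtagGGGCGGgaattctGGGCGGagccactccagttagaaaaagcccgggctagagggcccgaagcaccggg
Meg3, chr12:109540881-109541080, plus strand: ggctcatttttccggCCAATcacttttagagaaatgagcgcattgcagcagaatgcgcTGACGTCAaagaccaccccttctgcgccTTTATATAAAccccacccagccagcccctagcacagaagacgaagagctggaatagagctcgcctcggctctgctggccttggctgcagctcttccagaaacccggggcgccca
The H19 peak had 2 GGGCGG matches and 1 CCAAT match. In the Meg3 peak a CCAAT match, a CRE match and 2 overlapping TATAAA matches followed each other in the direction of transcription.

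The remaining 5 sites lie at lncRNAs of muscle or next to muscle genes.
1700113A16Rik, chr3:88178021-88178220, minus strand, nearest coding gene Mef2d: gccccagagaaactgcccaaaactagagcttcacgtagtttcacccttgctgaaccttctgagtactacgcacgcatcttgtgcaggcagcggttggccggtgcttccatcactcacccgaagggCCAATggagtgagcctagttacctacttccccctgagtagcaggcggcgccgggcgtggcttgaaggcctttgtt
1700025L06Rik, chr7:46348921-46349160, minus strand, nearest coding gene Myod1: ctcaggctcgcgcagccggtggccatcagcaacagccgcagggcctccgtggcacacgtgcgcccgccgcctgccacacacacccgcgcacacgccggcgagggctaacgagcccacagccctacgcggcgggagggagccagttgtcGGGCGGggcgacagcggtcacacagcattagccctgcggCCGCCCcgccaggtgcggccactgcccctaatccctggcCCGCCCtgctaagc
2310065F04Rik, chr11:67119701-67119840, minus strand, among the skeletal myosin heavy chain genes: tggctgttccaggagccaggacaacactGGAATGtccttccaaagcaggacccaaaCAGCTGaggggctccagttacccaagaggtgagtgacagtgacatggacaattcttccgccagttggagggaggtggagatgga
1110002J07Rik, chr10:66920421-66920600, plus strand: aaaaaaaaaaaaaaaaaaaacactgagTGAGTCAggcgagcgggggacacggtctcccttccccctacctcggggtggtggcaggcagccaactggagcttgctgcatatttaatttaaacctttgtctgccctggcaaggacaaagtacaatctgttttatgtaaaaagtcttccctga
Gm28653, chr1:20669941-20670120, plus strand, the lncRNA that contains Mir206 and Mir133b: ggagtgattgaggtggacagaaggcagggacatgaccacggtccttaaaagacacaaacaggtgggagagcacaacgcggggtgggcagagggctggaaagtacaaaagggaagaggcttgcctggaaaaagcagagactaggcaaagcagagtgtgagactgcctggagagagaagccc
Of these, 1700113A16Rik and 1700025L06Rik are CpG-rich and the others are CpG-poor. The 1110002J07Rik peak also lies at the start of Gm26576, which is nearer and on the plus strand. Its sequence is printed along that strand, opposite to 1110002J07Rik. The 2310065F04Rik peak, with 1 CpG, held an E-box and a TEAD match, and the Gm28653 peak, with 3 CpG, held no match to the motifs searched.

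The open lncRNA starts were weaker than open coding starts and stood close to the average shared peak. Their median value was 0.957 in replicate 1 and 1.23 in replicate 2, against 0.952 and 1.17 over all 93861 shared peaks. The 22499 shared peaks within 500 bp of a coding start had medians of 2.43 and 3.03, and the 44548 distal peaks, over 5 kb from any annotated start, 0.723 and 0.939. Antisense starts had medians of 1.08 and 1.32 and lincRNA starts 0.924 and 1.21. Ranked among all shared peaks by the geometric mean of both values, 116 lncRNA starts (8.61%) fell in the top 10%, 13 in the top 1% and 140 in the lowest 10%.

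Open lncRNA starts rich in CpG had higher values than CpG-poor ones in both libraries. Of the 1347 sites, 316 (23.5%) had a CpG observed to expected ratio of at least 0.6 in 300 bp about the midpoint and are called CpG-rich here. The share was 23.9% over all shared peaks, 70.1% at coding starts and 4.16% among distal peaks. CpG-rich lncRNA starts had median values of 2.17 and 2.79, and the 1031 CpG-poor ones 0.810 and 1.05. Within each class lncRNA starts ranked between coding starts and distal sites in both libraries. CpG-rich coding starts had medians of 3.70 and 4.82 and CpG-rich distal peaks 1.20 and 1.23, while among CpG-poor peaks the medians were 1.06 and 1.31 at coding starts and 0.712 and 0.933 at distal sites. Sites are not replicates, so these are descriptions of the 2 libraries.

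**Figure D1:**
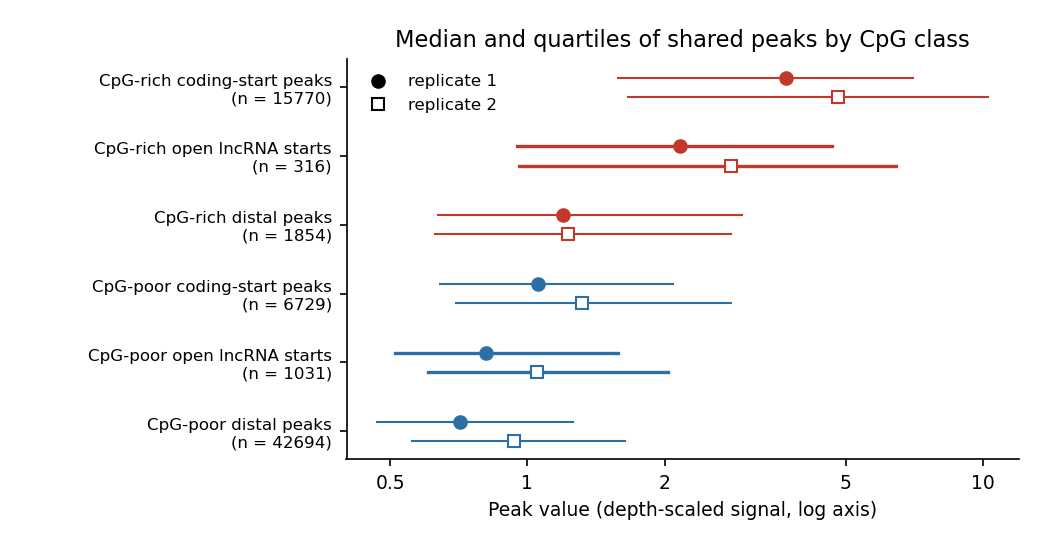
Median (symbol) and quartiles (line) of the deposited peak value, on a log axis, for shared peaks of 3 kinds split by CpG class, with replicate 1 as filled circles and replicate 2 as open squares. Within each CpG class open lncRNA starts lie between coding-start peaks and distal peaks; for the CpG-rich class the lncRNA medians are 2.17 and 2.79.

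The rise with CpG content was graded. The 265 lncRNA starts with a ratio under 0.2 had medians of 0.718 and 0.933. Medians were 1.68 and 1.85 for the 181 starts between 0.6 and 0.8, and 3.45 and 4.61 for the 41 starts at 1.0 or above. At coding starts the corresponding medians ran from 0.914 and 1.24 to 5.03 and 6.71. The share holding GGGCGG, itself a CpG-containing motif, went from 4.53% to 73.2% over the same lncRNA classes.

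Values of CpG-rich starts also followed each other more closely between the libraries than those of CpG-poor starts. Spearman's rho between the replicate values, a description across sites that share their libraries' depth, was 0.957 over the 316 CpG-rich lncRNA starts, 0.878 over the 1031 CpG-poor ones and 0.905 over all. It was 0.966 over coding-start peaks and 0.829 over distal peaks. Replicate 2 was higher at 908 of the 1347 sites (67.4%), close to the 64.9% of all shared peaks. Where several replicate 2 peaks overlapped a replicate 1 peak, the highest value was taken, for lncRNA starts and all shared peaks alike. This choice can raise replicate 2 values and the ratios below, and how much it adds was not tested.

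**Figure D2:**
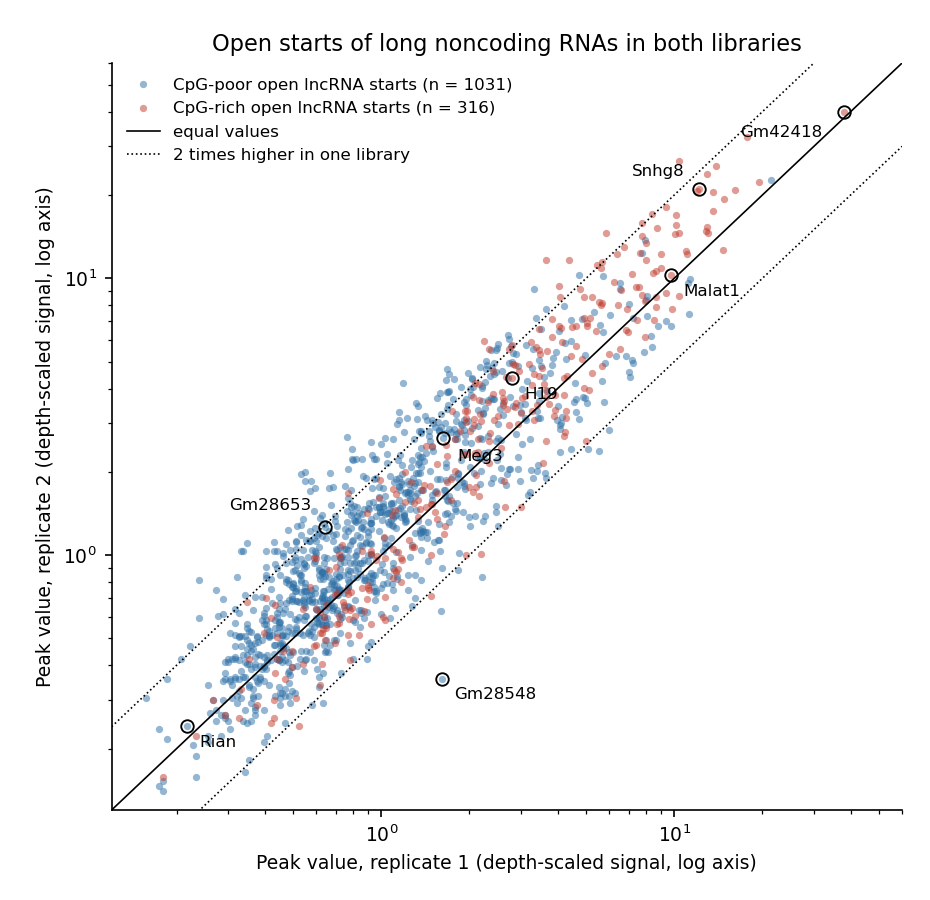
Peak value of each of the 1347 open lncRNA starts in replicate 1 (x axis) and replicate 2 (y axis), both log axes, with CpG-rich starts in red and CpG-poor starts in blue; the solid line marks equal values and the dotted lines a factor of 2. The named starts run from Rian (0.217 and 0.241), near the low end, to Gm42418 (38.0 and 40.01), the highest, and Gm28548 (1.61 and 0.358) lies farthest off it.

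Few lncRNA starts differed strongly between the replicates. Replicate 2 was at least 2 times higher at 138 sites (10.2%), against 9.87% of all shared peaks, and at most 0.5 times replicate 1 at 15 sites (1.11%), against 1.3%. The largest drops from replicate 1 were at Gm28548 (1.61 and 0.358, or 296 and 61 tags), Gm28387 (2.20 and 0.833) and Gm15841 (1.599 and 0.628). The largest rises were at A630075F10Rik (0.533 and 1.97), Gm44773 (0.549 and 1.99) and Gm5444 (1.19 and 4.20). The 300 bp about the Gm28548 midpoint were 84.3% repeat. Gm28548 and Gm15841 lay outside the authors' stricter peak set in replicate 2. A630075F10Rik lay outside it in replicate 1 and had no footprint there. All 6 of these starts were CpG-poor, as were 1031 of the 1347 sites. They were picked for these ratios, which are therefore descriptions.

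Most open lncRNA starts held footprints, the small gaps in cleavage that a bound protein can leave within an open site. A footprint was found in both libraries at 1134 sites (84.2%), against 83% of all shared peaks, and the share was 89.2% for CpG-rich and 82.6% for CpG-poor starts. The mean number per site was 2.68 and 2.75. The 5 sites with the most were Gm6410 (13 and 11), Gm9530 (10 and 12), 2810405F17Rik (9 and 12), 1700028E10Rik (9 and 9) and Gm26863 (10 and 8), all at peaks at least 440 bp wide against a median of 180 bp. In the authors' stricter peak set, 926 sites (68.7%) were present in both libraries, against 64.3% of all shared peaks, 85.7% of coding-start peaks and 55.4% of distal peaks.

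Open bases around the start were compared by CpG class. With 1 start taken per gene, bases with a false discovery rate under 0.05, called listed bases, covered the start itself in 85.9% and 83.9% of 249 CpG-rich lncRNA starts, and in 55.2% and 61.3% of 861 CpG-poor ones. CpG-poor lncRNA starts had more listed bases upstream than downstream. The 500 bp before the start were 35.4% and 42.3% listed, and the 500 bp after it 29.8% and 34.5%. At CpG-rich lncRNA starts the balance leaned downstream, with 57.3% and 58.8% before and 61.7% and 60.4% after the start. CpG-rich coding starts leaned further downstream, with 71.5% and 72.3% before and 86.6% and 84.7% after. CpG-poor coding starts leaned downstream too, with 49.2% and 52.9% before and 54.3% and 54.4% after, unlike CpG-poor lncRNA starts. The median number of listed bases within 1000 bp on either side was 721 and 726 at CpG-rich lncRNA starts, 296 and 401 at CpG-poor ones, and 961.5 and 965 at coding starts. The rule lets a midpoint lie up to 500 bp from the start, and 576 of the midpoints (42.8%) lay within 100 bp. The median midpoint was 31 bp upstream of the start.

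**Figure D3:**
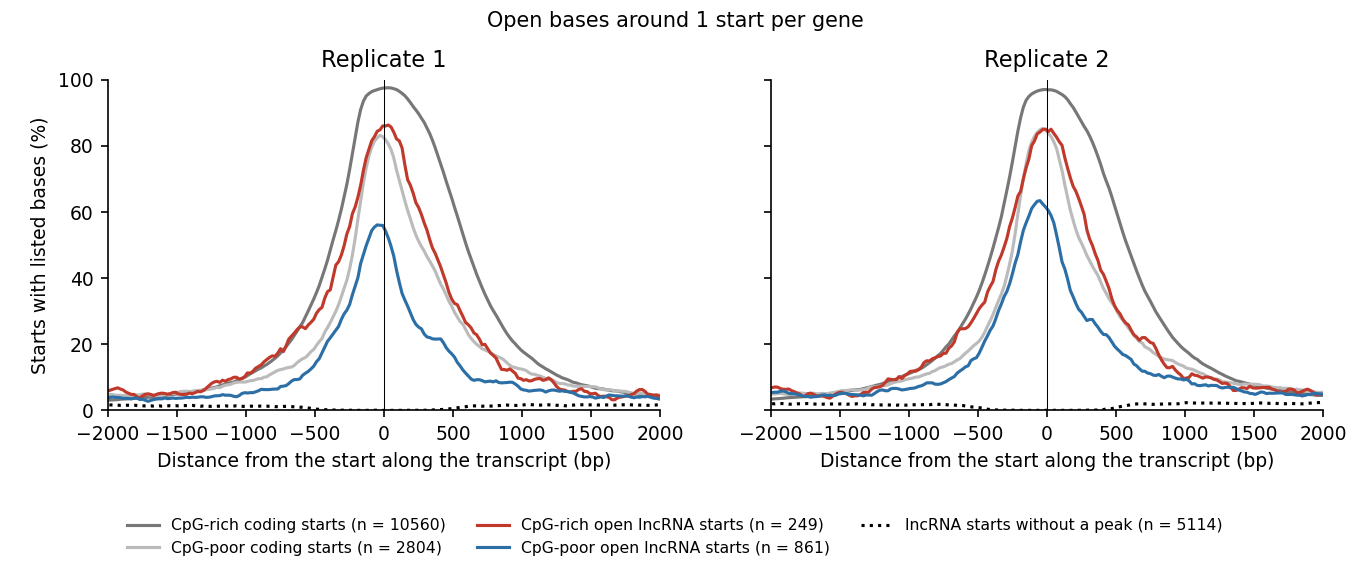
Percentage of starts with listed bases (y axis) by distance along the transcript from the start (x axis, bp, negative upstream), in replicate 1 (left) and replicate 2 (right), for lncRNA and coding starts with a peak by CpG class and for lncRNA starts without one. CpG-poor lncRNA starts peak at 56.1% and 63.4%, just upstream of the start, and CpG-rich ones at 86.3% and 85.1%.

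Most annotated lncRNA genes had no open start in this muscle. Of 6717 genes with a lincRNA or antisense start over 2 kb from coding starts, 1139 had a shared peak there (17%), against 67.7% of 20807 coding genes. Here the 2 kb were measured from the lncRNA start and not from the peak midpoint, so this number differs slightly from the 1138 genes of the sites. A gene was open if any of its starts had a peak. For coding genes every transcript start was used, with no limit on distance, so the numbers of starts per gene are unlike. How much this adds to either share was not tested. The share was 17.4% for lincRNA and 15.8% for antisense genes. CpG class went with a larger difference, since 47.3% of 560 genes with a CpG-rich lncRNA start were open there and 14.5% of 6302 with a CpG-poor one. For coding genes these shares were 94.4% and 31.1%. A gene with starts of both classes counted in each. Transcripts with the best support levels in the annotation, 1 and 2, were open in 19.4% and 21.8% of genes, and those of level 5, the least supported, in 12.8%. Single-exon and spliced lncRNAs had shares of 17.99% and 16.95%.

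**Figure D4:**
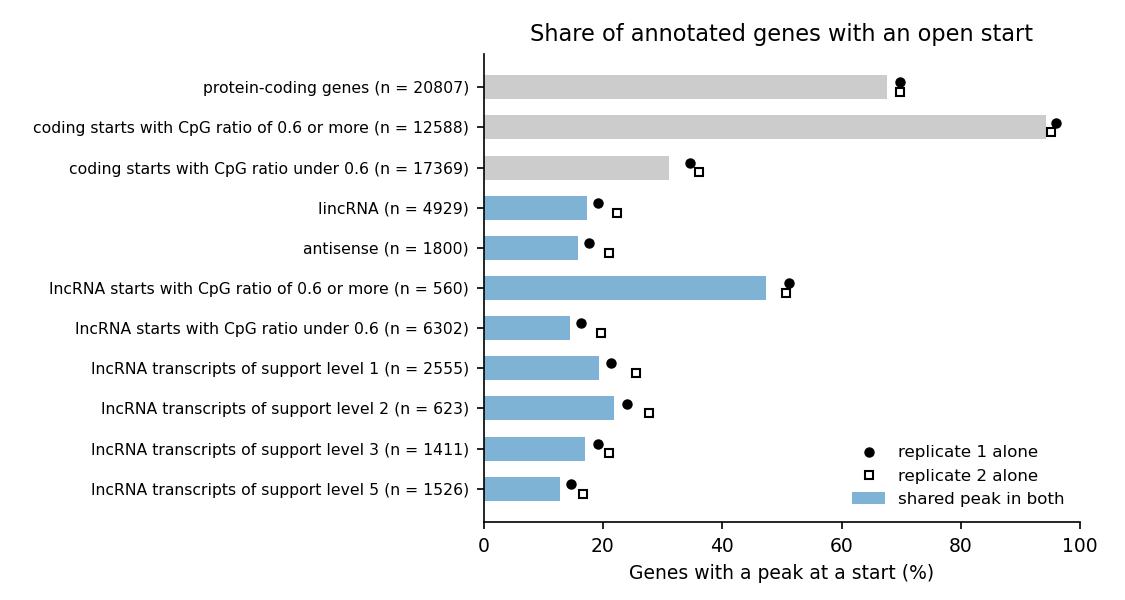
Percentage of annotated genes with a peak at a start (x axis) for coding genes (grey) and lncRNA genes over 2 kb from coding starts (blue), by type, CpG class and transcript support level; bars show a shared peak in both libraries, circles replicate 1 alone and squares replicate 2 alone. lncRNA genes with a CpG-rich start reach 47.3%, still under the 94.4% of CpG-rich coding starts.

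The open lncRNA starts lay mostly in intergenic sequence. There were 1100 intergenic sites (81.7%), 194 in introns and 53 in exons of protein-coding genes, and 231 of the 247 inside a coding gene lay at a lncRNA of the opposite strand. The transcript types chosen by the rule largely set these counts. Of the 1031 lincRNA sites 984 were intergenic, and of the 316 antisense sites 116. The same shares over all annotated lncRNA starts were not counted. The median distance to the nearest coding start was 32625 bp. Sites nearer to coding genes were stronger, with medians of 1.43 and 1.62 for the 292 within 10 kb, 1.02 and 1.32 for the 749 between 10 and 100 kb, and 0.617 and 0.831 for the 306 farther out. CpG-rich shares moved with this, at 33.9%, 23.4% and 13.7%. Starts on both strands were found at 39 sites, whose medians were 1.64 and 1.72. At the edges of the rule, the 173 sites with a start 400 to 500 bp away had medians of 0.892 and 1.05, and the 127 shared peaks just outside, up to 600 bp away, 0.903 and 1.09. The 29 sites with a coding start up to 2500 bp away had medians of 2.09 and 3.05, and the 49 peaks left out with one between 1500 and 2000 bp 1.21 and 1.32. Only 18 sites (1.34%) were at least 50% repeat, against 2.5% of all shared peaks.

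By motif content the open lncRNA starts stood between coding starts and distal sites for most of the motifs searched in 300 bp about the midpoint, on both strands. GGGCGG, the SP/KLF site, was in 28.1% of lncRNA starts, 62.1% of coding-start peaks, 11.3% of distal peaks and 26.5% of all shared peaks. The ETS core CCGGAAG was in 7.13%, 12.5%, 2.30% and 5.08% of these, in the same order. CAGCTG, the E-box that MyoD and its relatives bind, was in 30.5% of lncRNA starts and in 29.1% of all shared peaks. It was in 34.0% of CpG-poor and 18.99% of CpG-rich lncRNA starts, while GGGCGG was in 17.9% and 61.1%. Matches to the TEAD site and to the MEF2 site were in 16.1% and 4.01% of lncRNA starts, against 16.3% and 3.57% of all shared peaks. The CTCF core was in 4.23%, against 5.89%. CCAAT was in 31.5% of lncRNA starts, 29.6% of coding starts, 31.5% of distal sites and 30.3% of all shared peaks. TATAAA was in 7.498% of lncRNA starts, against 8.17%, and the AP-1 site in 9.73%, against 9.29%. The CRE was in 1.26%, against 0.956%. Rare motifs at lncRNA starts were those of NRF1 (0.223%, against 0.431%), YY1 (0.148%, against 0.272%) and NFI (0.0742%, against 0.176%).

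The strongest open lncRNA starts were mainly CpG-rich starts of little studied lincRNAs. All 12 of the highest by geometric mean were lincRNA starts with footprints in both libraries, 11 were CpG-rich, 10 held GGGCGG and 0 held CAGCTG. The highest, Gm42418 on chromosome 17 (38.0 and 40.01), overlaps an annotated ribosomal RNA gene and was the only one of the 1347 sites to do so. Ribosomal RNA genes exist in many copies, and what other copies add to that value was not tested. Next came 1700096K18Rik (17.7 and 32.5), Gm15408 (21.4 and 22.6), Tmem250-ps (19.5 and 22.4), 1810026B05Rik (13.9 and 25.5) and 9430037G07Rik (16.1 and 20.9). The others were 1700028E10Rik with D730045B01Rik (12.9 and 23.9), Gm33195 (14.8 and 19.3), Gm10010 (13.6 and 20.5), 6720427I07Rik (10.4 and 26.6), Snhg8 (12.1 and 21.1) and Gm20732 (11.9 and 20.7). Replicate 2 was higher at all 12, and at 67.4% of all 1347 sites. Gm15408 was the only CpG-poor start among them and held none of the motifs searched. Among the 100 highest sites 72 were CpG-rich and 66 held GGGCGG. Among the 100 lowest 11 were CpG-rich and 14 held it.

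Hosts of snoRNAs, whose spliced RNA is largely a by-product and whose introns carry the guides of ribosomal RNA modification, had strong CpG-rich starts. Of the 10 listed hosts that have a start over 2 kb from coding starts, 8 were open in both libraries, against 17% of all such lncRNA genes. Their 10 peaks had medians of 4.43 and 6.54, and 8 of these were CpG-rich. Snhg8 (12.1 and 21.1) and Snhg5 (12.98 and 15.3) led. Epb41l4aos (6.85 and 6.53), Snhg6 (4.91 and 7.18), Dancr (4.04 and 9.40), Snhg17 (4.83 and 5.11), Snhg12 (3.45 and 6.54) and Snhg20 (3.45 and 4.43) followed. Both libraries kept all 8 main starts above the medians of the 1347 sites. Snhg12 and Snhg17 each had a second, weaker and CpG-poor peak (0.914 and 1.30, and 0.816 and 0.687). Snhg1, not among the 8, had start peaks of 5.60 and 12.3 that did not meet the distances of the rule. The lists hold well-known genes and were drawn up with results of these data known, so their counts are no independent evidence.

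Nuclear and housekeeping lncRNAs were open at 8 of 13 genes, against 17% of all lncRNA genes with such a start, with a median of 1.84 and 2.54 over 16 peaks. Tug1 (7.22 and 13.2), Crnde (6.75 and 11.6) and Pantr1 (0.544 and 0.247), not among the 8, had start peaks in both libraries. None of those peaks met the distances of the rule. Malat1, an abundant RNA of nuclear speckles, had values of 9.75 and 10.3, a ratio of 1.06. Neat1, the scaffold of paraspeckles, shares its start region with Frmd8os and had 2 peaks there, at 7.64 and 12.4 and at 3.84 and 6.12. Dubr, a lncRNA of myoblast differentiation, reached 5.17 and 7.22. Lockd, downstream of the cell cycle inhibitor gene Cdkn1b, had its highest peak at 2.73 and 5.57, with another nested in it. Values of 2.05 and 3.72 were found at 2900097C17Rik and of 2.57 and 2.44 at the highest of 3 Pvt1 peaks. Miat was the weakest, at 0.745 and 0.663, and lay outside the stricter set in both libraries.

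In the annotation, 45 of the sites (3.34%) stood at a start of a lncRNA transcript that contains a microRNA hairpin on the way, for 25 genes and 36 hairpins. Their medians were 1.31 and 1.42, against 0.957 and 1.23 over all 1347 sites. Mature sequences from RefSeq (GRCm38.p6) are shown for the microRNAs best known in muscle and mesenchyme, with the seed, bases 2 to 8, in capitals. The seed pairs with target messages, so microRNAs that share it are grouped.
let-7a-5p: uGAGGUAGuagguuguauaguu
let-7b-5p: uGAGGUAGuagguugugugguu
let-7c-5p: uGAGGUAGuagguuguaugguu
let-7d-5p: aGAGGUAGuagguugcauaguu
let-7f-5p: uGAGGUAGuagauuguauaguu
miR-99a-5p: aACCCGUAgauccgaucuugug
miR-100-5p: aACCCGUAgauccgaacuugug
miR-125b-5p: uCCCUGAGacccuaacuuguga
miR-16-5p: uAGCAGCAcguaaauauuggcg
miR-199a-3p: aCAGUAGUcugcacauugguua
miR-214-3p: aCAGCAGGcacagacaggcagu
miR-206-3p: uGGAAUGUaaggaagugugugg
miR-133b-3p: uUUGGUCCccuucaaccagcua
The let-7 sequences share the seed GAGGUAG and miR-99a and miR-100 the seed ACCCGUA. The others shown each have a seed of their own.

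Precursors of let-7, a family that restrains growth programmes and rises as tissues mature, were open at 4 separate loci. The strongest was 6720427I07Rik, whose CpG-rich start lies 8228 bp upstream of Mirlet7a-1, 8583 bp upstream of Mirlet7f-1 and 10386 bp upstream of Mirlet7d. It had 1915 and 4526 tags, that is 10.4 and 26.6, a ratio of 2.55 between the libraries. At Lncppara, which contains Mirlet7c-2 and Mirlet7b, 2 overlapping CpG-poor peaks had values of 2.50 and 2.97 and of 2.81 and 5.39. At Mir99ahg, which contains Mir99a and Mirlet7c-1, the highest of 7 peaks had 5.72 and 6.39, 98552 bp upstream of Mir99a, and the nearest to it had 2.07 and 2.95 at 4034 bp. The gene 3110039I08Rik, with 9 peaks the one with most, contains Mir100, Mirlet7a-2 and Mir125b-1. Its highest peak had 7.04 and 8.06 and is CpG-poor, and both peaks at the start nearest to Mir125b-1, 565 bp from it, had 1.41 and 3.19 and 1.31 and 1.98.

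Other microRNA hosts differed in level by over an order of magnitude. Of 13 listed hosts with a start over 2 kb from coding starts, 8 were open, with medians of 1.91 and 1.72 over 24 peaks. The share over all such lncRNA genes was 17%. Mir670hg had 2 peaks, and the one at the start of the transcript that contains Mir670 and Mir129-2 was the weaker, with 0.892 and 0.622. Its other peak, at a start past those hairpins, had 5.05 and 6.73. Carmn, a lncRNA known from smooth muscle, had 2.43 and 4.51. Dleu2, host of Mir16-1, had 4 peaks, all CpG-rich, the highest at 10.2 and 15.6 and at 9.01 and 12.2. The first of these is shared with the start of Gm27017 on the opposite strand. E130102H24Rik, host of Mir101a, had 5.63 and 8.02. Dnm3os, the antisense host of Mir199a-2 and Mir214 inside Dnm3 and active in mesenchyme, had 1.71 and 4.53 and was CpG-poor. Gm4258, host of Mir181a-1 and Mir181b-1, had 2.00 and 3.99. Mir155hg and Mir142hg, hosts known from blood cells, had 2.15 and 1.64 at the higher of 2 peaks and 0.647 and 1.15. Beside these, 1 of 4 macrophage markers had an open promoter in both libraries, and the part of blood cells in these values was not tested. The lowest were Mir3072 in Mirg and the hairpins of Rian, whose starts had 0.315 and 0.358 at most and 0.217 and 0.241. At Gm28653, host of the muscle microRNAs Mir206 and Mir133b, the CpG-poor start had 0.642 and 1.27 (118 and 216 tags), 9128 and 12887 bp upstream of the hairpins, below the medians of all microRNA-containing starts.

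Imprinted lncRNAs, each expressed from the allele of one parent, were open at 9 of 10 listed genes, against 17% of all such lncRNA genes. Over their 15 peaks the medians were 1.33 and 1.21. Kcnq1ot1, the silencer of the Kcnq1 domain, had 2.36 and 5.51, Nespas, antisense in the Gnas locus, 2.87 and 4.85, and H19, the maternal partner of Igf2, 2.78 and 4.37. Airn, antisense in Igf2r, had 1.59 and 2.91 at its start and 0.925 and 1.01 at a second peak. In the Dlk1 domain on chromosome 12, Meg3 had 1.63 and 2.65 at the highest of 3 peaks, while Rian had 0.217 and 0.241 and Mirg 0.315 and 0.358 at the highest of 4. B830012L14Rik, between Rian and Mirg, stood closer to Meg3 with 2.25 and 3.40. Zim3 (0.234 and 0.223) was among the weakest of all 1347 sites, at 43 and 38 tags. Which parent's allele was open cannot be read from these values.

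Of 8 listed Hox lncRNAs with a start over 2 kb from coding starts, 3 were open, against 17% of all such lncRNA genes. Hoxd3os1, in the intron of Hoxd3, had 11.2 and 7.46, Gm15050 in an exon of Hoxa3 had 3.93 and 3.79, and Halr1 0.381 and 0.311. In all 3 replicate 1 was higher. Hoxa11os, not counted as open by the rule, had start peaks of 1.18 and 1.41. Of 10 lncRNAs listed as antisense to developmental factors, 3 were open, against the same 17%. Tbx3os1 had 1.16 and 0.798 and Runx2os2 0.794 and 1.12. The highest, Gm15587 (3.65 and 3.71), lies in an exon of Nos3 with Atg9b as nearest coding gene, neither of them a developmental factor. Hand2os1 (1.25 and 1.09), Wt1os (0.566 and 0.552) and Otx2os1 (0.517 and 0.405), not counted as open, had start peaks in both libraries.

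LncRNAs known from muscle and heart were open at 13 of 20 listed genes, against 17% of all such lncRNA genes, and had medians of 1.92 and 2.81 over 16 peaks. The lists of snoRNA hosts (8 of 10), imprinted (9 of 10) and nuclear lncRNAs (8 of 13) were open to a similar or larger extent, so the count is not particular to the muscle list. The listed genes include Malat1, Neat1, Dubr and H19, given above, and 6 of the peaks were CpG-rich. The remaining genes of the list had CpG-poor starts. The highest was 1110002J07Rik (4.24 and 5.85), at a peak shared with the nearer start of Gm26576 on the opposite strand. Trp53cor1, next to the cell cycle inhibitor gene Cdkn1a, had 1.59 and 3.84, and Bvht, known from heart differentiation, 1.77 and 2.86. Levels of 1.83 and 2.76 were found at 2310015D24Rik, 2.01 and 2.09 at 2310069B03Rik, and 2.17 and 1.80 at the higher of 2 peaks of 2210408F21Rik. The start of 2310065F04Rik, among the myosin heavy chain genes, had 0.821 and 2.22 (151 and 378 tags), and that of 2310043L19Rik 0.908 and 1.47. Replicate 2 was higher at 14 of the 16 peaks, against 67.4% of all open lncRNA starts. CAGCTG was in 8 of the 16, among them peaks of Malat1 and Neat1, against 30.5% of all open lncRNA starts. The 7 other listed genes with such a start and no shared peak there were Myhas, Gm12295, Fendrr, Hand2os1, Chaer1, Mir133a-1hg and Mirt1. They were not all closed. With every annotated start of the gene allowed, Myhas (0.631 and 0.875) and Hand2os1 (1.25 and 1.09) had peaks in both libraries.

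There were 7 open lncRNA starts with a gene of the muscle list as nearest coding gene, 0.52% of the 1347 sites against 0.334% of the 60731 shared peaks over 2 kb from coding starts. Strongest by far were both peaks of 1700113A16Rik, 9869 and 9499 bp from the start of Mef2d, a transcription factor of muscle differentiation, with 10.2 and 16.97 and with 8.39 and 17.1. A pair of peaks at Gm33926, near the related Mef2a, had 1.01 and 1.51 and 0.642 and 0.628. Prr33, in an intron of the fast troponin gene Tnnt3 and annotated here with a lincRNA transcript, had 1.58 and 1.30. The CpG-rich start of 1700025L06Rik, 27433 bp from Myod1, the master regulator of the muscle lineage, had 0.990 and 1.87 and held an E-box in the 300 bp about its midpoint. Gm13522, 7792 bp from the start of Neb, which encodes the thin filament protein nebulin, had 0.473 and 0.939. The libraries kept the Mef2d neighbour far above the others.

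**Figure D5:**
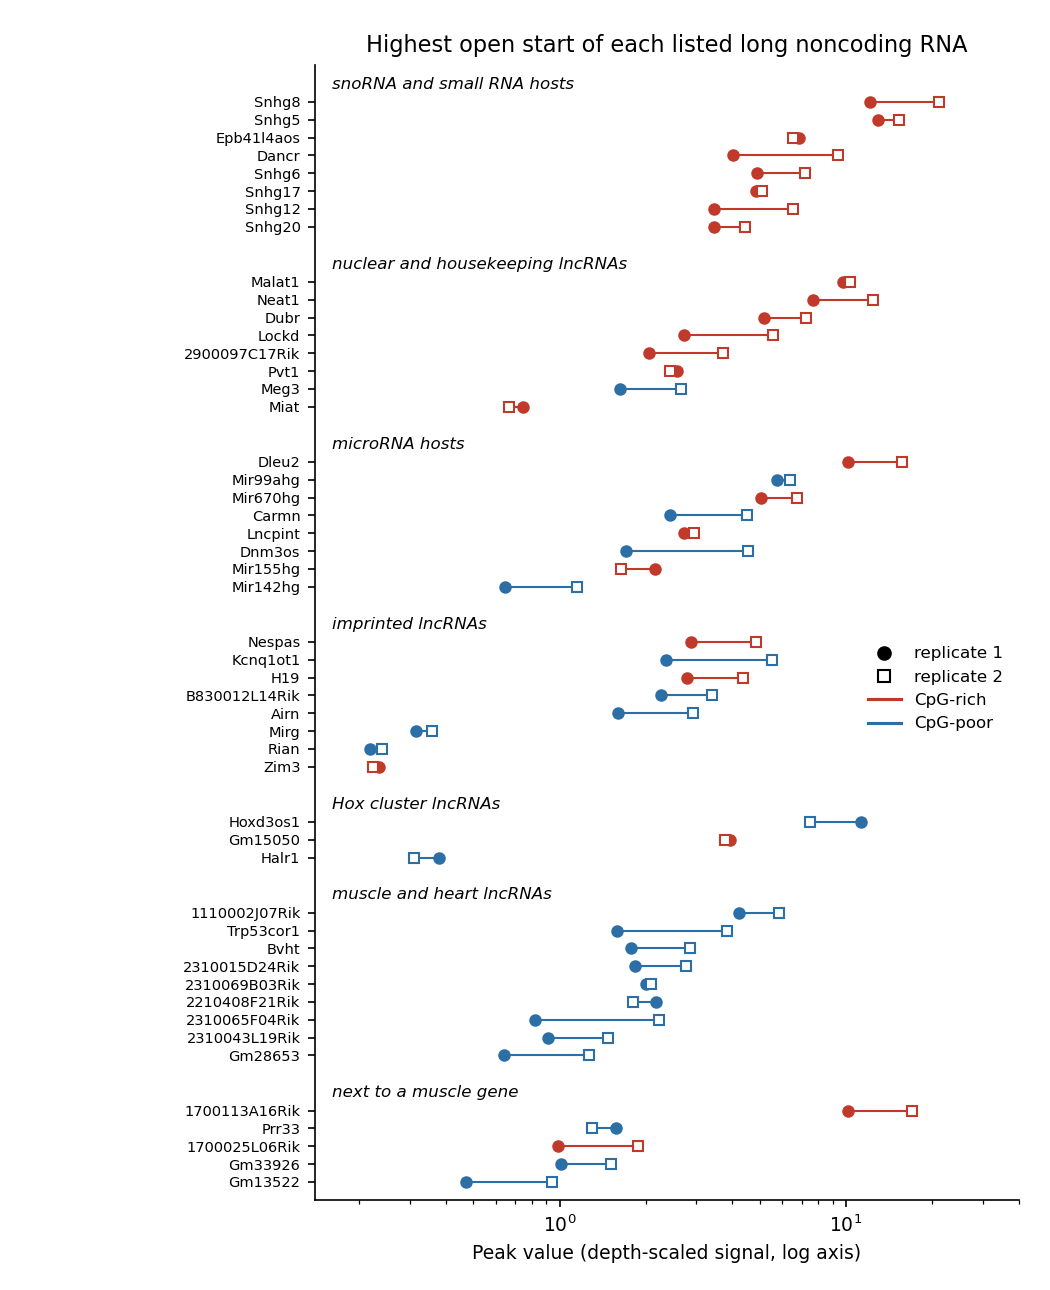
Deposited value (x axis, log) of the highest open start of each listed lncRNA, each gene shown once under its first list, with replicate 1 as filled circles and replicate 2 as open squares; red marks CpG-rich and blue CpG-poor starts. The snoRNA hosts are all CpG-rich and lie between 3.45 and 21.1. The lncRNAs shown only under muscle and heart are all CpG-poor. The highest of these is 1110002J07Rik (4.24 and 5.85), whose peak also lies at the start of Gm26576.

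Most lncRNA genes, 939 of 1138 (82.5%), had a single open start peak, and 8 had 4 or more. These were 3110039I08Rik with 9, Mir99ahg with 7, Lncpint with 6, and BC043934, Dleu2, Frmd8os, Gm19705 and Mirg with 4 each. Lncpint, a p53-responsive lncRNA, had its highest peak at 2.73 and 2.95. Some of these peaks overlap each other. In all 36 sites overlapped another one, leaving 1328 separate regions, and 45 shared their replicate 2 peak.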

How the data were processed

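DNase-seq of gastrocnemius gave 2 libraries of 1 group. Per the notes deposited for each sample, peaks, footprints and false discovery rates were made for each library from its filtered alignments to mm10. For the aligner and the callers, names and versions were not given in the sources used here. Per the files, the authors deposited a depth-scaled signal per peak. All of its values that were checked were whole multiples, within 0.05, of one step (0.00544 in replicate 1, 0.00587 in replicate 2). The highest values were left out of this check, and 1 step was read as 1 tag throughout. Tags can hold PCR copies, so errors cover counting only. The deposited false discovery rates, a type of p-value, list only positions under 0.05. Footprints carry one constant value, and only their positions were used.

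The wider peak set was used (123255 and 150088 peaks). The partner of a peak was the overlapping replicate 2 peak with the highest value. Starts came from GENCODE M21, and sequence and soft-masked repeats from RefSeq GRCm38.p6 (mm10). The CpG ratio is the CpG count times the window length over the product of the C and G counts. Distances run from peak midpoints. Selection, motif search and CpG ratio were tested on simulated data. Python 3.11.15, pandas 2.3.3, numpy 2.4.6, scipy 1.17.1, matplotlib 3.10.9 and pyfaidx 0.9.0.4 were used. No test was run, since there is 1 group and sites are not replicates.

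The genes named are the 12 highest sites, all sites of the lncRNA lists, sites with a muscle gene as nearest coding gene, the 3 most extreme ratios each way and the 5 sites with most footprints. MicroRNA hosts were added from the annotation, and examples from them were chosen after their values were seen. The sites and lists were chosen with earlier results of these data known. Whether reads of CAST alleles mapped less often to mm10 was not analysed here.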

Additional observations from a re-analysis of the deposited data

How the results depend on the processing

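Of 87 values recomputed under other settings, 69 moved by less than the spread (the spread between libraries, a 95% interval, or 1.5 times for counts) and 18 moved more. The stricter-set share was not recomputed in the stricter set, which fixes it. With transcripts of support level 1 or 2 alone there were 705 sites at 589 genes, with 27.4% CpG-rich, 84.5% with a footprint in both libraries and 0.709% repeat. In the stricter peak set the medians were 1.501 and 1.89, 28.6% were CpG-rich and 90.8% held footprints. With a start allowed within 1000 bp, 20.6% were CpG-rich and 83.7% held footprints; within 250 bp 84.9% held footprints, with coding starts over 1 kb away 83.4%, and with an overlap of 50% of both peaks 89.03%. Taking 1 library alone gave 1585 to 1835 sites at 1262 to 1481 genes and a CpG-rich share from 18.9% to 22.8%. Footprints and the stricter set were then counted in that library alone, not in both. The footprint share ran from 86.05% to 86.12% and the stricter-set share from 64.7% to 67.9%. Counted in replicate 1 and in replicate 2 separately, the main sites had footprint shares of 90.3% and 89.8%. Their stricter-set shares were 73.1% and 82.6%. Without replicate 1 the replicate 2 median was 0.839, and without replicate 2 the replicate 1 median was 0.799. Joining overlapping sites, an alternative chosen after seeing the data, left 1328 sites and moved no value past the spread. No paired analysis was possible because there is 1 group.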

Other observations

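The X chromosome, outside the sites described above, had 24 shared peaks at lncRNA starts by the same distances, 0.948% of its 2532 shared peaks. Their medians were 0.517 and 0.607, and 15 of 122 lncRNA genes of the X chromosome (12.3%) were open in both libraries. Ftx, a lncRNA of the X inactivation centre, had the highest of these values, 3.31 and 6.70. Jpx, from the same region, had 1.24 and 2.09 at one peak and 1.38 and 0.921 at another. Male cells have a single X chromosome, so values there and on chromosomes 1 to 19 rest on different copy numbers.

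Several well-known lncRNAs had open starts but were not counted, because the start lies within 2 kb of a coding start or carries another transcript type. The highest values at their starts were 9.10 and 16.6 at Gas5, 12.01 and 13.4 at Zfas1, 14.8 and 15.2 at Snhg15, 11.1 and 26.6 at Mir22hg, 7.22 and 13.2 at Tug1 and 10.3 and 12.9 at Rmrp. At these starts the signal of the lncRNA and of a neighbouring coding gene cannot be told apart where both begin in the same stretch. Hotair had no peak in replicate 1 and 0.933 in replicate 2. Hottip, Mir17hg and Chaer1 had none in either library.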
